A study of Homo sapiens with 12 samples.

Results

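Prolidase (gene symbol PEPD) and 7 further enzymes of proline handling were followed in human glioblastoma cells with and without PEPD over-expression. The members were taken by name from the deposited count table: PEPD, PYCR1, PYCR3, ALDH18A1, ALDH4A1, OAT, XPNPEP1 and PREP, 8 of the 63241 genes listed. All 8 were found, and 6 of them had enough counts to be tested. PYCR3 and ALDH4A1 did not pass the filter on low counts and are described by their counts.

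The study sequenced polyadenylated RNA from the human glioblastoma lines T98G and U251, both long-established cultures. PEPD-OE cells (PEPD over-expressed, per the series title) were set against NC cells within each line, where NC is an abbreviation that the labels leave unexpanded. Each of the 4 groups (T98G PEPD-OE, T98G NC, U251 PEPD-OE, U251 NC) held 3 replicates, 12 libraries in all. The vector, the promoter driving PEPD, whether a line was a clone, and whether replicates were separate cultures are not given in the labels, so the p-values speak only of the spread between libraries, which may be technical.

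Prolidase cuts dipeptides with proline or hydroxyproline at their C-terminal end, the last step in freeing proline from collagen and dietary peptides. Cells also make proline: from glutamate, ALDH18A1 forms pyrroline-5-carboxylate (P5C), which P5C reductases, among them PYCR1 and PYCR3, turn into proline, and from ornithine, OAT forms the same intermediate. In the breakdown direction, PRODH oxidises proline to P5C and ALDH4A1 oxidises P5C to glutamate. XPNPEP1 removes an N-terminal residue that is followed by proline, and PREP cuts short peptides after an internal proline.

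Library totals ran from 464056 to 924204 counts, and levels are given in CPM, counts per 1e6 of the TMM-adjusted library size. The level worth 3 counts lay between 3.20 and 6.33 CPM, depending on the library. Most members other than PEPD had few counts per library. The labels describe a stranded kit, but the strand setting of the counting is not given in the sources used here, and many counts stand under genes on the strand opposite a coding gene, so a gene with an exon across from a named gene is given after the word opposite. Of 12 glioma and astroglial markers, 11 had counts. OLIG2 was at 0 in all 12 libraries, AQP4 had 1 count in all, and FABP7 and S100B were at 0 in the T98G libraries. The markers' summed level was 1250 to 1420 CPM in the T98G PEPD-OE libraries and 1750 to 1850 in T98G NC, and 3660 to 4210 in U251 PEPD-OE and 5030 to 5180 in U251 NC. The sum was thus lower with PEPD-OE in both lines, most of it VIM, CD44 and GFAP, and its part in the results was not tested. Single markers went the other way: GFAP had means of 48.0 CPM in T98G NC and 65.7 with PEPD-OE, and in U251 EGFR had 28.9 and 53.2 CPM and SOX9 92.2 and 101 CPM. Of 16 epithelial, endothelial, myeloid, fibroblast and neuronal markers, 1 (SYT1) passed the filter, and EPCAM and VWF were at 0. In bulk RNA, fewer cells carrying a transcript and less of it per cell cannot be told apart.

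PEPD itself was checked first. PEPD (ENSG00000124299, minus strand of chromosome 19, 33386950 to 33521794 in GRCh38, GENCODE 29) stood at 175, 156 and 162 CPM in the 3 T98G PEPD-OE libraries and at 19.0, 2.60 and 11.3 CPM in T98G NC. In U251 it stood at 170, 167 and 187 CPM with PEPD-OE and at 13.2, 6.44 and 8.97 CPM in NC. Every PEPD-OE library lay far above every NC library, so the labels PEPD-OE and NC held in all 12. PEPD was at similar levels in T98G and U251 and could not check the labels of the lines.

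The rise in PEPD was 4.04 on the log2 scale in T98G (SE 0.25, edgeR adjusted p = 1.71e-32) and 4.16 in U251 (SE 0.23, adjusted p = 1.86e-35). As a ratio of scaled counts it was 16.8-fold in T98G (exact 95% interval 10.7 to 27.8) and 18.2-fold in U251 (12 to 29.1). Such intervals cover counting error only, and their width comes from the NC groups, where PEPD had 20 counts in T98G and 23 in U251. The T98G rise minus the U251 rise was -0.12 (adjusted p = 0.886). The reached levels were 164 ± 9.50 CPM in T98G and 175 ± 10.6 CPM in U251 (mean ± SD, n = 3), and their difference was not called (-0.09 on the log2 scale, adjusted p = 0.613). Counts from the introduced gene and from the cell's own PEPD cannot be told apart in this table.

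**Figure D1:**
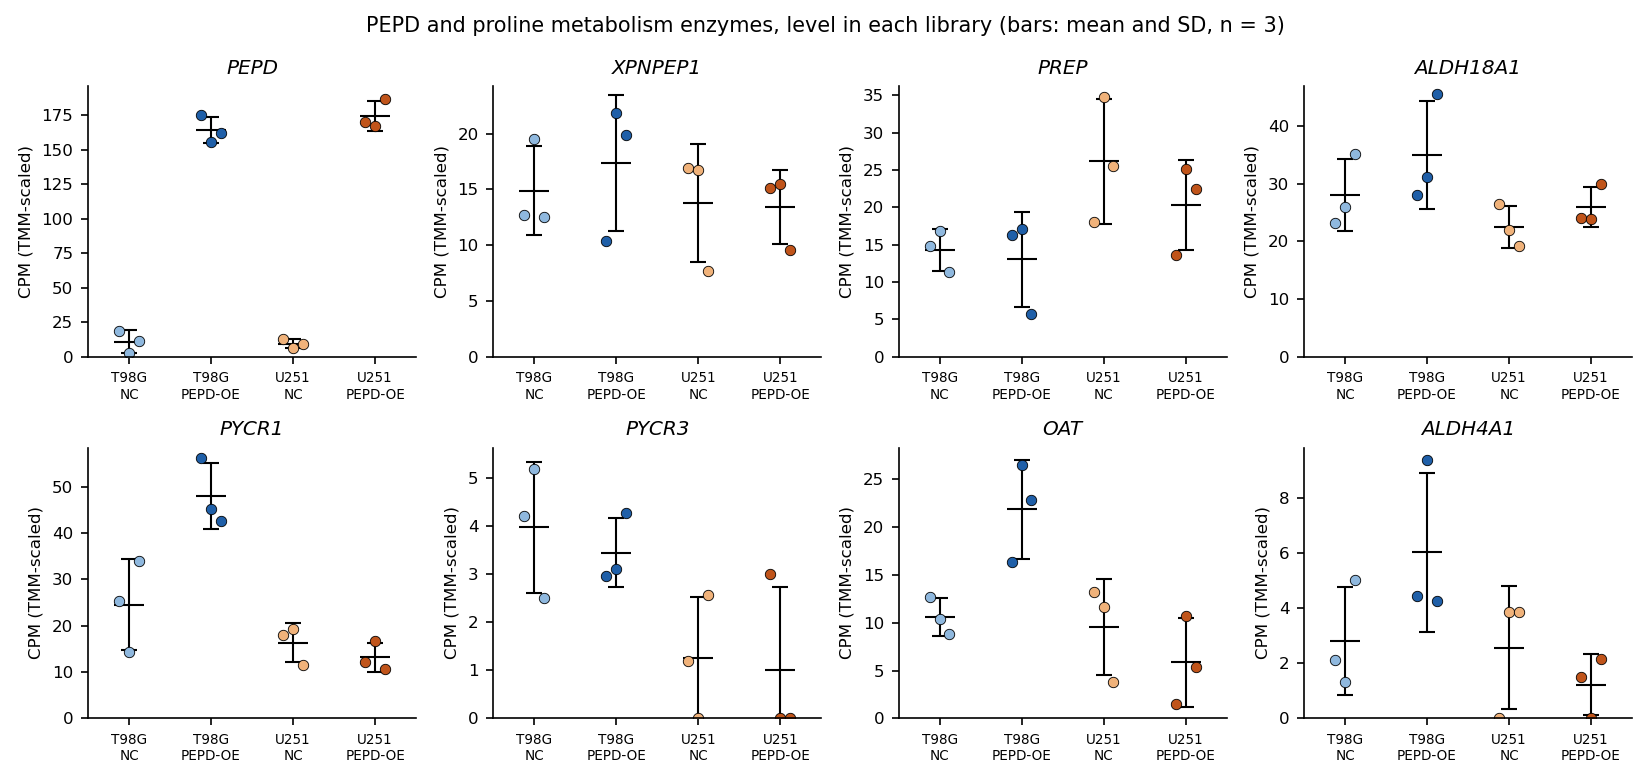
Levels of the 8 members in every library, in CPM on linear axes that start at 0, with 1 panel per gene and the groups along the horizontal axis; points are libraries and bars show the mean and SD of 3 libraries. PEPD separates PEPD-OE from NC in both lines, PYCR1 and OAT do so in T98G only, and PYCR3 and ALDH4A1 stay below 10 CPM throughout.

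Among the members tested, 3 of 6 rose with PEPD-OE in T98G, PEPD, PYCR1 and OAT, and none fell. Over all 8773 genes tested in T98G, 32.3% were called in either direction with 17.7% higher and 14.7% lower, so 2 of 5 members besides PEPD is a count to be read against a broad response. In U251, PEPD alone of the 6 was called, where 8.55% of all genes were called in either direction (4.13% higher, 4.42% lower). For the other 5 members in U251, edgeR called 0 and 0 had an unadjusted p under 0.05, while DESeq2 gave 0 of the 5 an adjusted p and so could call none (in U251 it gave one for 3499 genes). The median log2 fold change of the 5 was 0.28 in T98G and -0.31 in U251, beside 0.00 over all genes tested in each line. Libraries of PEPD-OE and NC did not overlap for 3 of 6 members in T98G (43.5% of all genes) and for 1 of 6 in U251 (22.4%).

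**Figure D2:**
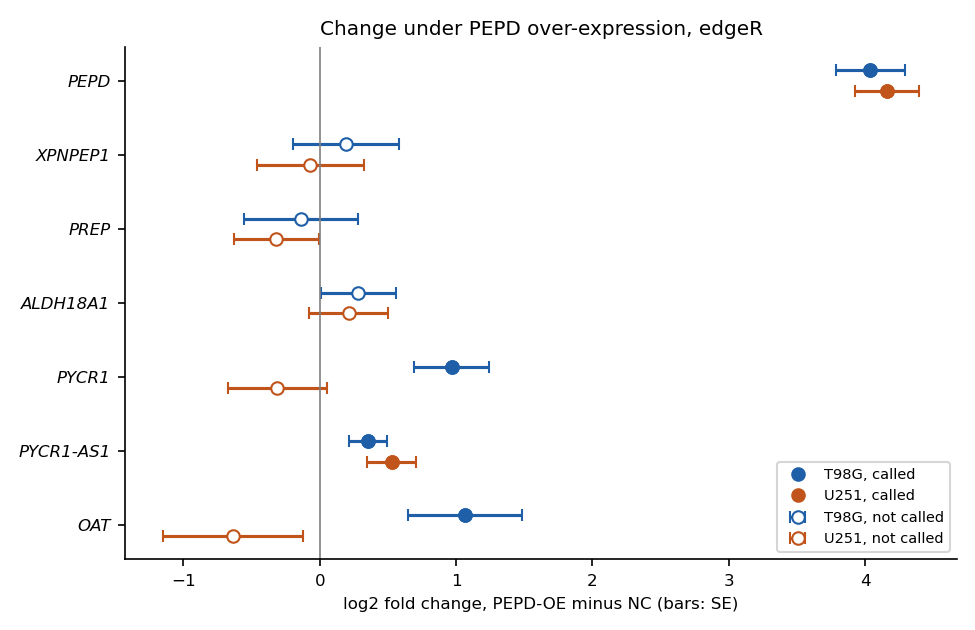
Log2 fold change of each tested member and of PYCR1-AS1, PEPD-OE minus NC, in T98G and U251, with bars of 1 SE and filled markers for genes called at an edgeR adjusted p under 0.05. PEPD lies at 4.04 and 4.16, PYCR1 (0.97) and OAT (1.07) are called in T98G and lie below 0 and uncalled in U251, and PYCR1-AS1 is called in both lines at 0.36 and 0.53.

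The other peptidases among the members gave no call. XPNPEP1 (ENSG00000108039, chromosome 10, 109864766 to 109923553, minus strand) was at 10.4, 21.8 and 19.9 CPM in T98G PEPD-OE and at 12.7, 19.5 and 12.5 in T98G NC. It was at 15.1, 15.5 and 9.61 CPM in U251 PEPD-OE and at 16.9, 16.7 and 7.69 in U251 NC, so the groups overlapped in both lines. Its count ratio was 1.14 in T98G (0.683 to 1.91; edgeR adjusted p = 0.753) and 0.95 in U251 (0.565 to 1.59; adjusted p = 0.955). PREP (ENSG00000085377, chromosome 6, 105277565 to 105403084, minus strand) was at 16.3, 17.1 and 5.70 CPM in T98G PEPD-OE and at 14.8, 16.9 and 11.3 in T98G NC. In U251 it was at 13.6, 25.1 and 22.4 CPM with PEPD-OE and at 18.1, 34.8 and 25.6 in NC. These values overlapped as well, with ratios of 0.906 (0.512 to 1.59; adjusted p = 0.836) and 0.806 (0.545 to 1.19; adjusted p = 0.633). An unchanged level lay within each of these intervals, whose bounds run from 0.512 to 1.91. In T98G NC cells, PREP was lower than in U251 NC, a log2 difference of -0.86 (SE 0.35, adjusted p = 0.0326). This call was lost in 5 of 17 alternative settings, among them when T98G NC replicate 3 (adjusted p = 0.158), U251 NC replicate 2 (0.210) or U251 NC replicate 3 (0.0609) was left out. XPNPEP1 shares 40 exon bases with RNU4-5P on the opposite strand, which had 0 counts. PREP shares 10 exon bases with AL133406.2 on the opposite strand. That gene, too, was lower in T98G NC than in U251 NC (11 against 31.7 CPM, log2 difference -1.53, adjusted p = 1.39e-04).

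Of the enzymes that make proline, ALDH18A1 stayed uncalled and PYCR1 rose in T98G. ALDH18A1 (P5C synthase, ENSG00000059573, chromosome 10, 95605929 to 95656706, minus strand) was at 28.1, 31.2 and 45.6 CPM in T98G PEPD-OE and at 23.2, 26.0 and 35.1 in T98G NC. In U251 it was at 24.1, 23.9 and 29.9 CPM with PEPD-OE and at 26.5, 21.9 and 19.2 in NC. The PEPD-OE means were the higher ones in both lines, within the spread of the libraries. Its ratios were 1.22 (0.849 to 1.75; edgeR adjusted p = 0.468) and 1.16 (0.795 to 1.70; adjusted p = 0.756).

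PYCR1 (ENSG00000183010, chromosome 17, 81932384 to 81942412, minus strand), the mitochondrial P5C reductase often raised in tumours, was at 56.2, 45.2 and 42.7 CPM in T98G PEPD-OE. In T98G NC it was at 25.3, 14.3 and 33.9 CPM, so all 3 PEPD-OE libraries lay above all 3 NC libraries. In U251 it was at 12.1, 16.7 and 10.7 CPM with PEPD-OE and at 18.1, 19.3 and 11.5 CPM in NC, and the groups overlapped. The T98G rise was 0.97 on the log2 scale (SE 0.28, edgeR adjusted p = 0.00311), a count ratio of 1.96 (1.38 to 2.82). In U251 the ratio was 0.804 (0.487 to 1.32; adjusted p = 0.710). The difference between the lines, 1.28 (SE 0.46), had an adjusted p of 0.0257. For this difference 2 of 6 members were called, PYCR1 and OAT, against 27.7% of all genes (the change higher in T98G for 14.1% and lower for 13.6%). Without T98G NC replicate 2, its lowest NC library, the T98G rise of PYCR1 was 0.64 (adjusted p = 0.104) and the difference 0.95 (adjusted p = 0.138). The call on the difference also went when T98G PEPD-OE replicate 1 was left out (adjusted p = 0.0713), or U251 PEPD-OE replicate 3 (0.0745), U251 NC replicate 1 (0.0721) or U251 NC replicate 2 (0.0841), and with DESeq2 (0.0829).

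Most counts at this locus carried the name of the gene on the other strand. PYCR1-AS1 (ENSG00000263585, plus strand, chromosome 17, 81932398 to 81933058) has 450 exon bases, and all 450 lie in exons of PYCR1, in its untranslated region, with 0 in coding sequence. Over the 12 libraries PYCR1-AS1 had 1058 counts and PYCR1 had 218, which per kilobase of exon is 31.1 times as many. Such a balance was common: of 298 noncoding genes with at least 95% of their exon bases inside exons of a coding gene on the opposite strand and at least 100 counts in the pair, 242 had more counts per kilobase than the coding partner (81.2%, Wilson 95% interval 76.4% to 85.2%). The median ratio of these pairs was 16.4, and 184 pairs had a ratio below that of PYCR1. Whether reads of the PYCR1 message were counted under PYCR1-AS1 was not tested here, since the table does not keep the reads' strand.

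PYCR1-AS1 had another pattern than PYCR1. It was at 183, 181 and 236 CPM in T98G PEPD-OE and at 156, 161 and 153 CPM in T98G NC. In U251 it was at 70.8, 86.0 and 84.4 CPM with PEPD-OE and at 51.8, 51.5 and 65.3 CPM in NC. In both lines each PEPD-OE library lay above each NC library. The rise was 0.36 on the log2 scale in T98G (SE 0.14, edgeR adjusted p = 0.0409) and 0.53 in U251 (SE 0.18, adjusted p = 0.0482). The first call was lost in 7 of 18 alternative settings and the second in 16 of 18, with the direction kept in all of them. The T98G rise minus the U251 rise was -0.17 (SE 0.23, adjusted p = 0.628). This difference was not called, and its sign was opposite to that for PYCR1. With the counts of both genes added together, an alternative chosen after the data were seen, the rise was 0.46 in T98G (SE 0.13, adjusted p = 0.00396) and 0.38 in U251 (SE 0.17, adjusted p = 0.160). The difference between the lines was then 0.08 (SE 0.21, adjusted p = 0.831). PYCR1-AS1 gave 1058 of the added counts and PYCR1 218, so the sum mainly followed PYCR1-AS1. It therefore cannot decide whether the PYCR1 difference between the lines holds. That difference was called only on the counts carrying the PYCR1 name.

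PYCR3 (ENSG00000104524, chromosome 8, 143603913 to 143609773, minus strand), the cytosolic reductase, had 2, 2 and 3 counts in T98G PEPD-OE and 2, 4 and 2 in T98G NC. In U251 it had 2, 0 and 0 counts with PEPD-OE and 1, 0 and 2 in NC. The ratios, 0.884 (0.273 to 2.79) in T98G and 0.653 (0.0545 to 5.70) in U251, set no useful bound on a change.

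OAT, which links ornithine to P5C, rose in T98G. OAT (ENSG00000065154, chromosome 10, 124397303 to 124418976, minus strand) was at 16.3, 26.5 and 22.8 CPM in T98G PEPD-OE and at 12.7, 10.4 and 8.78 CPM in T98G NC. In U251 it was at 1.51, 10.7 and 5.34 CPM with PEPD-OE and at 13.2, 11.6 and 3.84 CPM in NC. The T98G groups were separate and the U251 groups overlapped. The T98G rise was 1.07 on the log2 scale (SE 0.42, edgeR adjusted p = 0.0401), a count ratio of 2.12 (1.23 to 3.75), and the U251 ratio was 0.639 (0.310 to 1.28; adjusted p = 0.534). The difference between the lines was 1.70 (SE 0.67, adjusted p = 0.0439). Both calls were close to the threshold. OAT passed the filter on low counts only through its T98G PEPD-OE libraries (11, 17 and 16 counts), with 6, 8 and 7 counts in T98G NC. The T98G call was lost in 7 of 18 alternative settings, among them without T98G PEPD-OE replicate 2 (adjusted p = 0.155) or 3 (0.0999), without T98G NC replicate 2 (0.0940) or 3 (0.141), and with DESeq2 (0.136). The call on the difference was lost in 11 of 17 settings, 8 of which left out 1 library, with adjusted p from 0.0669 to 0.176 in these 8. They were every library left out but T98G PEPD-OE replicate 1, T98G NC replicate 1, U251 PEPD-OE replicate 2 and U251 NC replicate 3.

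On the breakdown side, ALDH4A1 (ENSG00000159423, chromosome 1, 18871430 to 18902781, minus strand), which oxidises P5C to glutamate, had 3, 6 and 3 counts in T98G PEPD-OE and 1, 1 and 4 in T98G NC. In U251 it had 1, 0 and 2 counts with PEPD-OE and 0, 3 and 3 in NC. The ratios were 2.02 (0.702 to 6.56) and 0.490 (0.0792 to 2.29), so these few counts set no useful bound on a change in either direction. Between the lines with PEPD-OE, the ratio of T98G to U251 was 4.83 (1.30 to 26.7), and the fit with no filter on low counts gave it an edgeR adjusted p of 0.0812. PRODH (opposite DGCR6 and AC007326.5), the first enzyme of proline breakdown, had 0 counts in each of the 12 libraries, where 3 counts would have been 3.20 to 6.33 CPM. Whether its reads were counted under a gene on the other strand was not tested.

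Per kilobase of exon, the members differed in level in NC cells. In T98G NC, PYCR1 (8.49 CPM per kilobase) and ALDH18A1 (7.46) were highest, followed by PREP (3.81), OAT (3.13), PEPD (2.64), XPNPEP1 (2.23), PYCR3 (1.23) and ALDH4A1 (0.761). In U251 NC the order was PREP (6.95), ALDH18A1 (5.98), PYCR1 (5.65), OAT (2.82), PEPD (2.30), XPNPEP1 (2.06), ALDH4A1 (0.696) and PYCR3 (0.387). By mean, PEPD thus stood near OAT and XPNPEP1 in NC cells of both lines. The SD of PEPD was 1.97 CPM per kilobase in T98G NC and 0.827 in U251 NC (n = 3), so its place beside these genes is uncertain. With PEPD-OE it reached 39.5 CPM per kilobase in T98G and 42.0 in U251, above every other member. These levels use the merged exon length of each gene and take no account of counts booked on the opposite strand, which for PYCR1-AS1 came to 348 CPM per kilobase in T98G NC and 125 in U251 NC.

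Between the lines, 1 of 6 tested members differed in NC cells (PREP, lower in T98G), against 48.7% of all genes (24.4% higher and 24.3% lower in T98G), and 2 of 6 in PEPD-OE cells (PYCR1 and OAT, higher in T98G), against 52.6% (26.3% higher and 26.3% lower). The libraries of the lines did not overlap for the same numbers of members, 1 of 6 in NC (55.1% of all genes) and 2 of 6 in PEPD-OE (55.9%). In PEPD-OE cells PYCR1 was 1.86 higher in T98G on the log2 scale (SE 0.30, edgeR adjusted p = 3.26e-08) and OAT 1.80 higher (SE 0.45, adjusted p = 3.00e-04). In NC cells neither difference was called, at 0.58 for PYCR1 (adjusted p = 0.139) and 0.10 for OAT (adjusted p = 0.883). PYCR1-AS1 was higher in T98G in both, by 1.48 in NC (SE 0.17, adjusted p = 2.90e-14) and by 1.31 in PEPD-OE (SE 0.15, adjusted p = 6.39e-14).

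The other genes of the pathway were taken from lists of 6 kinds. Of 13 other genes of proline synthesis and breakdown, 7 were tested, and in T98G 2 rose and 2 fell (17.7% and 14.7% of all genes tested), with a median log2 change of -0.01 beside 0.00 over all genes. LAP3, a leucine aminopeptidase of the cytosol, fell from 59.1, 75.4 and 53.9 CPM in T98G NC to 10.4, 7.79 and 7.12 in T98G PEPD-OE (log2 change -2.88, SE 0.32, edgeR adjusted p = 4.34e-14). In U251 the LAP3 groups overlapped, at 31.6, 71.6 and 53.4 CPM with PEPD-OE and 57.8, 70.9 and 53.8 in NC (log2 change -0.18, adjusted p = 0.687). GLUL, the glutamine synthetase that draws on glutamate, rose in T98G from 19.0, 44.2 and 41.4 CPM to 105, 93.5 and 98.3 CPM (1.42, SE 0.21, adjusted p = 7.97e-09). In U251, GLUL was at 22.7 ± 3.32 CPM with PEPD-OE and 22.5 ± 3.68 in NC (adjusted p = 1).

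GLUD1 (opposite SHLD2), glutamate dehydrogenase, rose by 0.67 in T98G (adjusted p = 0.0495), a call lost in 11 of 18 alternative settings, with an adjusted p of up to 0.353 (without T98G PEPD-OE replicate 3). In U251, 1 of the 7 was called, lower, where 4.42% of all genes were called lower.

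Of 17 other peptidases, among them dipeptidyl peptidases and relatives of XPNPEP1 and PREP, 8 were tested and 1 was called in T98G, where 32.3% of all genes were. CNDP2, a cytosolic dipeptidase, fell in T98G from 49.3 ± 9.82 to 28.0 ± 9.28 CPM (SD, n = 3; log2 change -0.84, SE 0.27, edgeR adjusted p = 0.0103). The call was lost in 4 of 18 settings: with DESeq2 (adjusted p = 0.104) and without T98G PEPD-OE replicate 1 (0.0949), T98G NC replicate 2 (0.0570) or T98G NC replicate 3 (0.0546). In U251, where 8.55% of all genes were called, edgeR called 0 of the 8 and 0 had an unadjusted p under 0.05. DESeq2, which gave 1 of the 8 an adjusted p there, called 0, against 425 of 3499 genes.

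Of 13 carriers of proline, related amino acids and small peptides, 5 were tested, of which 1 rose in T98G (17.7% of all genes) and 2 in U251 (4.13%). SLC38A2, a carrier of small neutral amino acids, rose by 0.52 in T98G (135 ± 4.70 to 193 ± 33.8 CPM, edgeR adjusted p = 0.00279) and by 0.63 in U251 (41.2 ± 9.85 to 64.3 ± 6.58 CPM, adjusted p = 0.0322). The U251 call was lost in 7 of 18 settings, among them without U251 PEPD-OE replicate 1 (adjusted p = 0.0990) or 2 (0.0910) or U251 NC replicate 1 (0.192) or 2 (0.144), and the T98G call only without T98G PEPD-OE replicate 1 (adjusted p = 0.0844). SLC1A4, a carrier of alanine, serine and cysteine that also takes proline, rose in U251 from 2.41, 6.44 and 6.4 CPM to 16.6, 15.5 and 18.2 CPM (1.71, SE 0.48, adjusted p = 0.0105; without U251 NC replicate 1, 1.36 with adjusted p = 0.116). In T98G its change was -0.53 (adjusted p = 0.469), and the difference between the lines was -2.24 (adjusted p = 0.0102). SLC1A4 passed the filter on low counts only through its U251 PEPD-OE libraries (11, 13 and 17 counts), with 2, 5 and 5 counts in U251 NC.

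Genes linked to prolyl hydroxylation of proteins were not all hydroxylases, since CRTAP, P4HB and PPIB were on the list. Of 12 tested (15 listed), 5 rose in T98G, CRTAP among them, and none fell, where 17.7% of all genes tested rose and 14.7% fell. Their median log2 change was 0.45 in T98G and -0.27 in U251, where 1 of 12 was called against 8.55% of all genes. P4HA1 (opposite AL731563.2) and P4HA2, the catalytic subunits of collagen prolyl 4-hydroxylase, rose in T98G by 0.72 (edgeR adjusted p = 0.0160) and 1.17 (adjusted p = 6.55e-04). P3H1, a collagen prolyl 3-hydroxylase, rose by 0.59 (adjusted p = 0.0125). Without T98G NC replicate 2 or 3 the adjusted p was 0.108 and 0.0858 for P4HA1 and 0.0715 and 0.0714 for P3H1, and without T98G PEPD-OE replicate 3 it was 0.0839 for P3H1. CRTAP (opposite AC112211.1), its partner protein, was named after its values were seen and rose by 0.53 (adjusted p = 0.00594; without T98G NC replicate 1, 0.40 with adjusted p = 0.0785). P4HA2 lies opposite P4HA2-AS1, also named after its values were seen, whose change was nearly the same, 1.17 in T98G (adjusted p = 2.80e-08). In U251 the pair was again alike, at -0.65 (adjusted p = 0.304) for P4HA2 and -0.66 (adjusted p = 0.0354) for P4HA2-AS1, a call lost in 8 of 18 settings, 5 of which left out 1 U251 library each (PEPD-OE replicate 3 was the exception). The 7 uncalled in T98G, named after their values were seen, included P3H4 (log2 change 0.68), P3H3 (0.37) and P4HB (0.02, opposite AC145207.3). The rest were P4HTM (-0.18, opposite AC137630.1), PPIB (-0.22, opposite SNX22), OGFOD1 (-0.23, opposite BBS2 and AC092140.2) and P3H2 (-0.27). DESeq2 called 3 of the 12 in T98G, and 0 in U251 of the 6 to which it gave an adjusted p there, EGLN1 not among them.

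EGLN1 was the member of this list that rose in both lines. EGLN1 (PHD2) is the prolyl hydroxylase that marks hypoxia-inducible factor alpha subunits for degradation. It was at 17.7, 26.5 and 14.2 CPM in T98G PEPD-OE and at 6.33, 2.60 and 7.53 in T98G NC. In U251 it was at 19.6, 16.7 and 11.7 CPM with PEPD-OE and at 4.82, 3.86 and 3.84 in NC. The groups were separate in both lines. In counts, T98G PEPD-OE had 12, 17 and 10 and T98G NC 3, 2 and 6. U251 PEPD-OE had 13, 14 and 11 counts and U251 NC 4, 3 and 3. EGLN1 thus passed the filter on low counts only through PEPD-OE libraries, and its rise was measured against few NC counts. The rise was 1.81 on the log2 scale in T98G (SE 0.49, edgeR adjusted p = 0.00170) and 1.86 in U251 (SE 0.50, adjusted p = 0.00732), and the difference between the lines was -0.05 (adjusted p = 0.973). The call held in every alternative setting that gave an adjusted p, 17 in T98G (0.00151 to 0.0345) and 16 in U251 (0.00478 to 0.0372). No exon of EGLN1 overlaps the opposite strand in the annotation used.

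**Figure D3:**
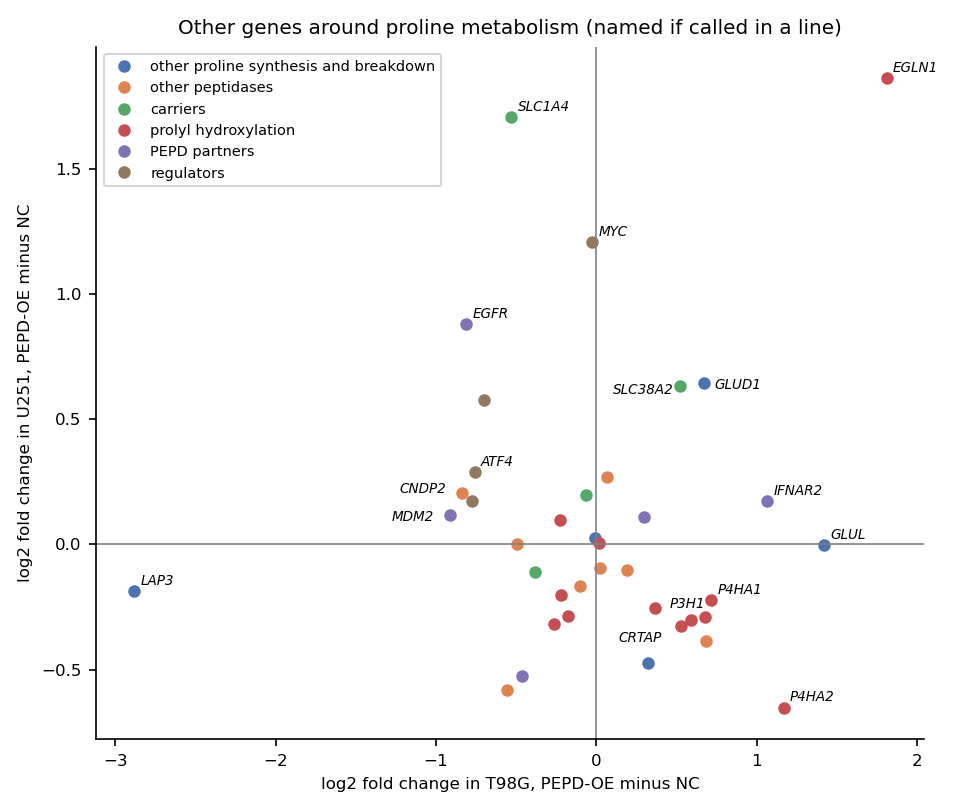
Log2 fold change with PEPD-OE in T98G (horizontal) and U251 (vertical) for the tested genes of the 6 lists, coloured by list, with names for genes called in at least 1 line; SLC15A1, at 0 counts in T98G, and 3 further genes are not drawn. EGLN1 (1.81, 1.86) lies high on both axes, EGFR (-0.81, 0.88) has opposite signs, and GLUL (1.42) and LAP3 (-2.88) lie near the horizontal axis.

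Proteins reported to bind PEPD or to depend on it, together with others of their pathways, formed a list of 6, all tested. In T98G, 1 rose and 3 fell (17.7% and 14.7% of all genes tested), and in U251, 2 rose (4.13%). EGFR (opposite EGFR-AS1), a growth factor receptor, fell by 0.81 on the log2 scale in T98G (94.7 ± 9.66 to 54.6 ± 5.52 CPM, edgeR adjusted p = 3.19e-04) and rose by 0.88 in U251 (28.9 ± 3.29 to 53.2 ± 1.85 CPM, adjusted p = 0.00498). MDM2 (opposite AC025423.4 and the carboxypeptidase M gene), a ubiquitin ligase, fell by 0.91 in T98G (adjusted p = 0.0203; lost in 6 of 18 settings, among them without T98G PEPD-OE replicate 1 or 2 or T98G NC replicate 1 or 3, with 0.0518 to 0.165). IFNAR2 (opposite IL10RB-DT), a chain of the type I interferon receptor, rose by 1.07 in T98G (adjusted p = 0.0223; lost in 5 of 18 settings, among them without T98G PEPD-OE replicate 1 or 3 or T98G NC replicate 1, with 0.0942 to 0.113). IFNAR1, named after its values were seen, was called in neither line. Its log2 change was 0.30 in T98G (edgeR adjusted p = 0.622) and 0.11 in U251 (adjusted p = 0.922).

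**Figure D4:**
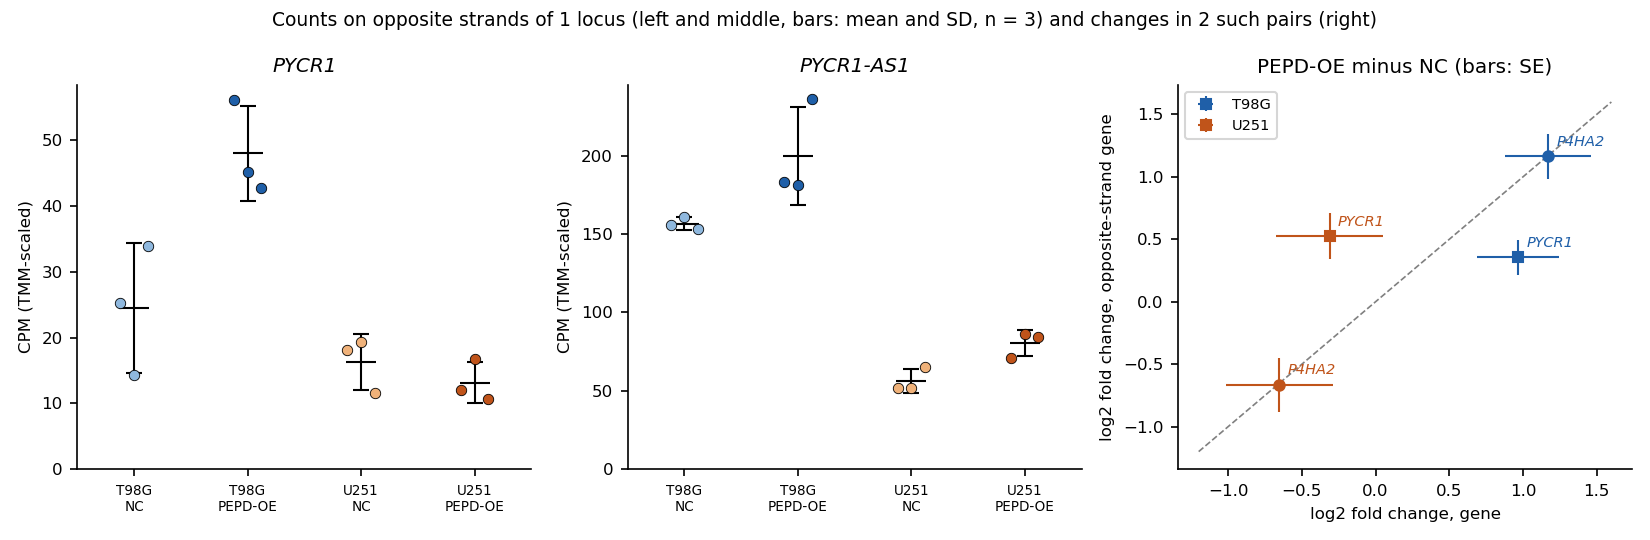
Left and middle, levels of PYCR1 and PYCR1-AS1 in CPM for each library by group (bars: mean and SD of 3 libraries); right, log2 fold change of PYCR1 and P4HA2 (horizontal) and of the gene on their opposite strand (vertical) in each line, with bars of 1 SE and a dashed line of equal change. P4HA2 with P4HA2-AS1 lies along the line in both lines of cells, while PYCR1 lies below it in T98G (0.97, 0.36) and above it in U251 (-0.31, 0.53).

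Of 6 regulators of proline synthesis genes, 4 were tested, of which 1 fell in T98G (14.7% of all genes) and 1 rose in U251 (4.13%). ATF4, the stress-response factor that drives amino acid synthesis genes, fell in T98G from 171, 201 and 221 CPM to 114, 98.2 and 141 CPM (-0.76, SE 0.15, edgeR adjusted p = 9.92e-06). This was the line in which PYCR1 and OAT were called higher, and a link to ATF4 was not tested. In U251, ATF4 was at 155 ± 31.3 CPM with PEPD-OE and 128 ± 6.58 in NC (0.29, adjusted p = 0.234). MYC rose in U251 from 10.1 ± 1.59 to 24.1 ± 8.34 CPM (1.21, SE 0.35, adjusted p = 0.0138; 0.125 without U251 PEPD-OE replicate 1 and 0.0844 without U251 NC replicate 1) and was at 54.5 ± 6.68 and 55.6 ± 1.54 CPM in T98G (adjusted p = 0.951). DDIT3 (opposite MARS1 and MBD6) was named after its values were seen. It was called in neither line, and its change differed between them by -1.28 (adjusted p = 0.00719).

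The gene whose level followed PEPD most closely was EGLN1. Across the 12 libraries, Pearson's r of log2 CPM (prior count 2) with PEPD was 0.938 for EGLN1, 0.858 for ARHGAP29, 0.855 for MKNK2 and 0.829 for ADAMTS1. These values describe libraries that fall into 4 groups, so they largely restate the group means, and no p is attached. Of these 4 genes, EGLN1 alone was called in both lines. ARHGAP29, MKNK2 and ADAMTS1 rose in T98G by 1.05, 0.94 and 1.52 and had values of 0.73, 0.56 and 0.86 in U251, with edgeR adjusted p of 0.0886, 0.200 and 0.0505 there.

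**Figure D5:**
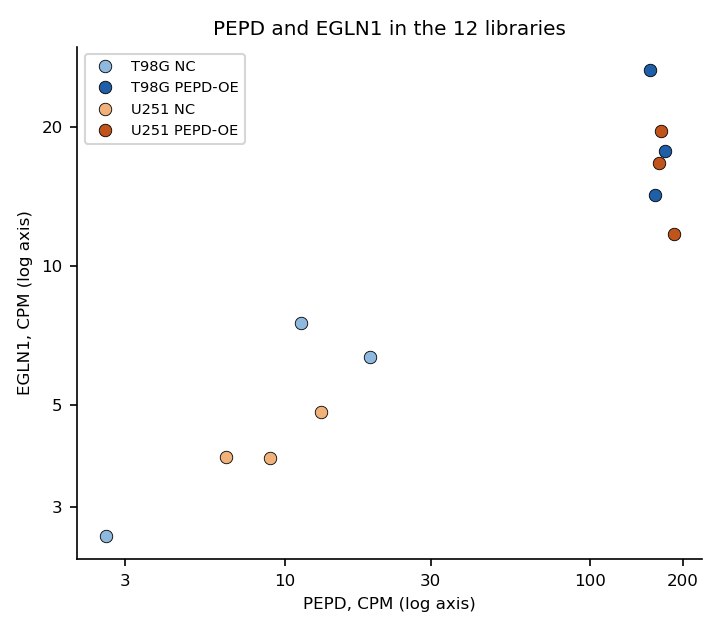
Level of EGLN1 against level of PEPD in each of the 12 libraries, both in CPM on logarithmic axes, with 1 colour for each of the 4 groups. The 6 NC libraries sit at 2.60 to 19.0 CPM of PEPD and 2.60 to 7.53 CPM of EGLN1, and the 6 PEPD-OE libraries at 156 to 187 and 11.7 to 26.5.

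The other members had different companions. For PYCR1 the closest gene was TRUB2 (r = 0.967, opposite COQ4), called higher in T98G (1.39) and not in U251. PYCR1 itself had an r of 0.729 with PYCR1-AS1. For OAT they were CPNE1 (0.92) and NQO2 (0.914, opposite HTATSF1P2), for ALDH18A1 KLF10 (0.838) and ELK4 (0.824, opposite MFSD4A and AC096533.1), for XPNPEP1 KIF22 (0.858, opposite AC009133.4) and UBXN4 (0.818), and for PREP SLC30A9 (0.891) and GNA11 (0.890, opposite KF456478.1 and AC005262.2). None of the 5 members had another member among these nearest genes.

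Promoter windows of 300 bases, 250 before and 50 after each annotated start (RefSeq, GRCh38.p14), were given for 5 of the 8 members: PEPD, XPNPEP1, ALDH18A1, OAT and ALDH4A1. They were searched on both strands for TGATGNAA, the core of the element bound by ATF4 with its C/EBP partners, and for the longer TGATGCAAT, which contains it. The core was found in 3.62% of all 35116 such windows and the longer form in 0.236%. Neither had a match in the 7 windows of the 5 members, which says only that these letters are not in these windows.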

How the data were processed

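The deposited table holds whole-number counts per Ensembl gene, not normalized, 1 column for each of the 12 libraries (0 columns unused). Tools named in the submitters' processing notes are fastp, FastQC, HISAT2 and featureCounts of Subread, with GRCh38 as the build. No versions, annotation release or strand setting were given there. Per the labels' protocols, libraries were stranded (dUTP) and made from polyadenylated RNA.

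In R 4.3.3 with edgeR 4.0.16, genes passing filterByExpr (minimum count 10; 8773 genes) were scaled by TMM and fitted with a robust quasi-likelihood model with 1 mean for each of the 4 groups (8 residual degrees of freedom). Contrasts comprised PEPD-OE minus NC in each line, the difference of these, and T98G minus U251 in NC and in PEPD-OE. Benjamini-Hochberg adjustment of the two-sided p-values ran over all genes tested, with calls made below 0.05. SE is the log2 change divided by the square root of F. Count ratios carry exact 95% conditional binomial intervals. Positions and overlaps came from GENCODE 29, which held 58228 of the 63241 identifiers. The code was tested on simulated data.

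Members and lists were chosen with earlier results of these data known. Genes named were the members and their opposite-strand partners, up to 4 called genes per list and line by size of change, and the nearest genes by Pearson's r (5 for PEPD, 2 for each other tested member). P4HA2-AS1, CRTAP, DDIT3, IFNAR1 and the uncalled genes of the prolyl hydroxylation list fall outside this rule. Some genes that the rule takes are not reported here. Alternatives were RLE scaling, no filter, a filter of at least 1 CPM in 3 libraries, a replicate block, DESeq2 1.42.0, each line alone and each library left out. Adding PYCR1 and PYCR1-AS1 counts was chosen after the data were seen.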

Additional observations from a re-analysis of the deposited data

Results flagged for a closer look

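For 15 genes named here the change with PEPD-OE differed between the lines, as a T98G change minus a U251 change with an edgeR adjusted p under 0.05, a test that called 27.7% of all genes. Among the members these were PYCR1 (1.28, SE 0.46, adjusted p = 0.0257) and OAT (1.70, SE 0.67, adjusted p = 0.0439). With PYCR1-AS1 counts added to those of PYCR1 the difference was 0.08 (edgeR adjusted p = 0.831). Most counts in that sum are those of PYCR1-AS1, so it does not decide about PYCR1 alone.

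These are differences of changes, not of levels. The change in T98G lay above that in U251 for GLUL (1.42, adjusted p = 0.00128), P4HA2 (1.82, adjusted p = 0.00114), P4HA2-AS1 (1.83, adjusted p = 3.15e-08), P4HA1 (0.94, adjusted p = 0.0263), P3H1 (0.89, adjusted p = 0.0185) and CRTAP (0.86, adjusted p = 0.00204). The change in T98G lay below that in U251 for LAP3 (-2.70, adjusted p = 6.25e-09), SLC1A4 (-2.24, adjusted p = 0.0102), MDM2 (-1.03, adjusted p = 0.0370) and EGFR (-1.69, adjusted p = 1.28e-06). It also lay below for ATF4 (-1.05, adjusted p = 1.64e-05), DDIT3 (-1.28, adjusted p = 0.00719) and MYC (-1.23, adjusted p = 0.0157). P4HA2 and P4HA2-AS1 lie on opposite strands and are not independent entries. The call on the difference was lost in 7 of 17 alternative settings for P4HA1 (DESeq2 0.0858; without T98G NC replicate 2 or 3, U251 PEPD-OE replicate 3 or U251 NC replicate 2, 0.0501 to 0.0958). It was lost in 6 of 17 for P3H1 (DESeq2 0.0571; without T98G PEPD-OE replicate 3, T98G NC replicate 2 or 3, U251 PEPD-OE replicate 1 or U251 NC replicate 3, 0.0509 to 0.0831). For MDM2 it was lost in 11 of 17 (DESeq2 0.126; 0.0520 to 0.170 without any 1 library but T98G NC replicate 2, U251 PEPD-OE replicate 3, U251 NC replicate 1 or U251 NC replicate 2). For MYC it was lost with DESeq2 (0.0667) and without U251 PEPD-OE replicate 1 (0.0861) or U251 NC replicate 1 (0.0559). EGLN1, by contrast, gave -0.05 (adjusted p = 0.973).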

How the results depend on the processing

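Of 94 single log2 changes followed through the alternatives, called and uncalled alike, 66 kept their status wherever an adjusted p was given. A call was lost in at least 1 alternative for 24, 4 gained one and 0 reversed. Many of the 66 were uncalled throughout, so 66 of 94 is not the share of calls that held. Members called in T98G (3) ranged from 1 to 3 with each library left out, at 1 without T98G NC replicate 2. For the difference between the lines (2), no filter gave 0, the filter of 1 CPM in 3 libraries 1, DESeq2 0, the added PYCR1 and PYCR1-AS1 counts 1, and each library left out 0 to 2. For T98G minus U251 in NC (1), no filter gave 0, DESeq2 0, the added counts 2, and each library left out 0 to 2. All genes called in U251 (750) fell to 425 with DESeq2, which gave 3499 genes an adjusted p there, and ranged from 440 to 742 with a library left out, near the low end without U251 PEPD-OE replicate 2, U251 NC replicate 1 (449) or U251 NC replicate 3 (442).

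PYCR1-AS1 kept its direction and lost its call in T98G with no filter (log2 change 0.354), the 1 CPM filter (log2 change 0.354) and DESeq2 (log2 change 0.366). Over left-out libraries its log2 change in T98G ran from 0.218 to 0.420. In U251 it lost its call with RLE scaling (0.501), no filter (0.524), the 1 CPM filter (0.525), DESeq2 (0.50) and the line alone (0.521), with 0.465 to 0.649 over left-out libraries. More genes share the adjustment without the filter (25902) or with the 1 CPM filter (19506). The cause of the other losses was not tested. The replicate block gave a log2 change of 0.518 for PYCR1-AS1 in U251 (edgeR adjusted p = 0.0509) and changed no other of these calls. Same-numbered libraries correlated in their deviations at -0.0417 to 0.0769 and differently numbered ones at -0.0608 to 0.0391, so the number was not used as a pairing. PYCR3, ALDH4A1 and PRODH had too few counts to be tested. Whether this came from depth or from the strand used in counting was not tested.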
